A study of Mus musculus with 2 samples.

Results

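Serpins are a family of proteins that share a fold with an exposed reactive-centre loop, and most of them inhibit a serine or cysteine protease by trapping it after it cuts that loop. In the heart they set limits on fibrinolysis, on the classical complement cascade and on leukocyte proteases, and a few members have lost inhibition altogether, among them the collagen chaperone HSP47 encoded by Serpinh1. All mouse gene symbols that start with Serpin, a clade letter and a number were taken as members. The files held 56 such symbols among 19465 genes, and 27 of them reached 20 unique molecular identifiers (UMIs, counted molecules) over both sections, as did 15236 genes in all.

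Expression was measured with the Visium CytAssist assay, in which probes bound to the RNA of a formalin-fixed, paraffin-embedded section are read out at barcoded positions, or spots. The 2 samples were a 5-μm heart section of a control α-MHC-MerCreMer+/− mouse and one of a TOP2B transgenic mouse with the genotype α-MHC-MerCreMer+/−TOP2B LSL/−, and both received a single intraperitoneal dose of 80 mg/kg tamoxifen. The transgenic mouse carried human TOP2B cDNA behind a loxP-flanked STOP cassette and the CAG promoter at Rosa26, and the α-MHC promoter limits the tamoxifen-regulated Cre to cardiomyocytes, so that both sections came from mice with the Cre transgene and tamoxifen. For the model with this dose the methods give an age of 6 weeks and controls of the same age, while the age of the mice behind these sections and the time from tamoxifen to collection are not given in the sources used here. A spot can hold several cells of different types, so fewer cells of a type and less RNA per cell cannot be told apart.

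There were 1256 spots with 14376300 UMIs on the control and 924 spots with 12953389 UMIs on the transgenic side, at medians of 11336 and 14531 UMIs a spot. The sections shared 725 spot barcodes, which are codes of array positions and not of cells. Values are UMIs per 1000000 of the section (CPM), ranges in parentheses are 95% intervals that cover counting error only, and with 1 section per genotype no test was possible and no difference has a replicate check. Mouse Top2b stood at 106 and 102 CPM (control, transgenic), and whether its probes read the human transgene is not given in the sources used here. Cardiomyocyte markers were present in both sections, and in the transgenic one 4 of 7 were lower by 2-fold or more. All 6 erythroid markers were higher there by that rule, with a summed level of 1675 to 2548 CPM over the 4 quadrants of the control and 7192 to 46051 CPM over those of the transgenic section. Of 5 atrial markers tested, 4 were higher, led by Nppa at a log2 ratio of 6.21, whereas Sln had 16 and 10 UMIs. Bmp10, with 9 UMIs in each section, had too few to be tested.

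A gene was called where its ratio passed 2-fold and its interval did not hold 0. Of the 27 members, 12 (44.4%) were called higher in the transgenic section, against 13.1% of all genes tested. No member was called lower, against 4.66% of all genes. The limit of 20 UMIs counts both sections, for members and all genes alike. Serpinb9b and Serpinb1b, with 13 and 5 control UMIs, passed it only with their transgenic UMIs. The share of 44.4% thus rests in part on that limit. The median log2 ratio of the members was 0.74, and that of all genes was 0.20. Summed over the family, the control level was 686 CPM and the transgenic level 1476 CPM, and without Serpinh1 it was 293 and 1172 CPM.

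The members called higher were spread over the abundance range unevenly. Among members with at least 20 but under 200 UMIs over both sections, 3 of 16 were called and the median log2 ratio was 0.15, the same as the median of the 5916 genes of that range. Among members from 200 to under 2000 UMIs, 5 of 6 were called and the median was 1.51, beside 0.25 for 6988 genes. Among members with at least 2000 UMIs, 4 of 5 were called and the median was 2.07, beside 0.10 for 2332 genes. The exceptions in these upper ranges were Serpini1 and Serpinh1. Of all genes in the low, middle and high range, 13.78%, 12.64% and 13.04% were called higher. The 3 of 16 members called in the low range thus lay close to the share of all genes there. These ranges count UMIs of both sections, so a member higher in the transgenic section can enter an upper range through those UMIs. Serpina3n did so, with 34 control and 1917 transgenic UMIs, as did Serpinb9b, Serpinb6b and Serpine2, with 13, 137 and 184 control UMIs. Serpinf1, Serpinb6a and Serping1 had 383, 536 and 1450 control UMIs, under the 2000 of their range. The spread of the calls over the ranges thus rests in part on the grouping.

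**Figure D1:**
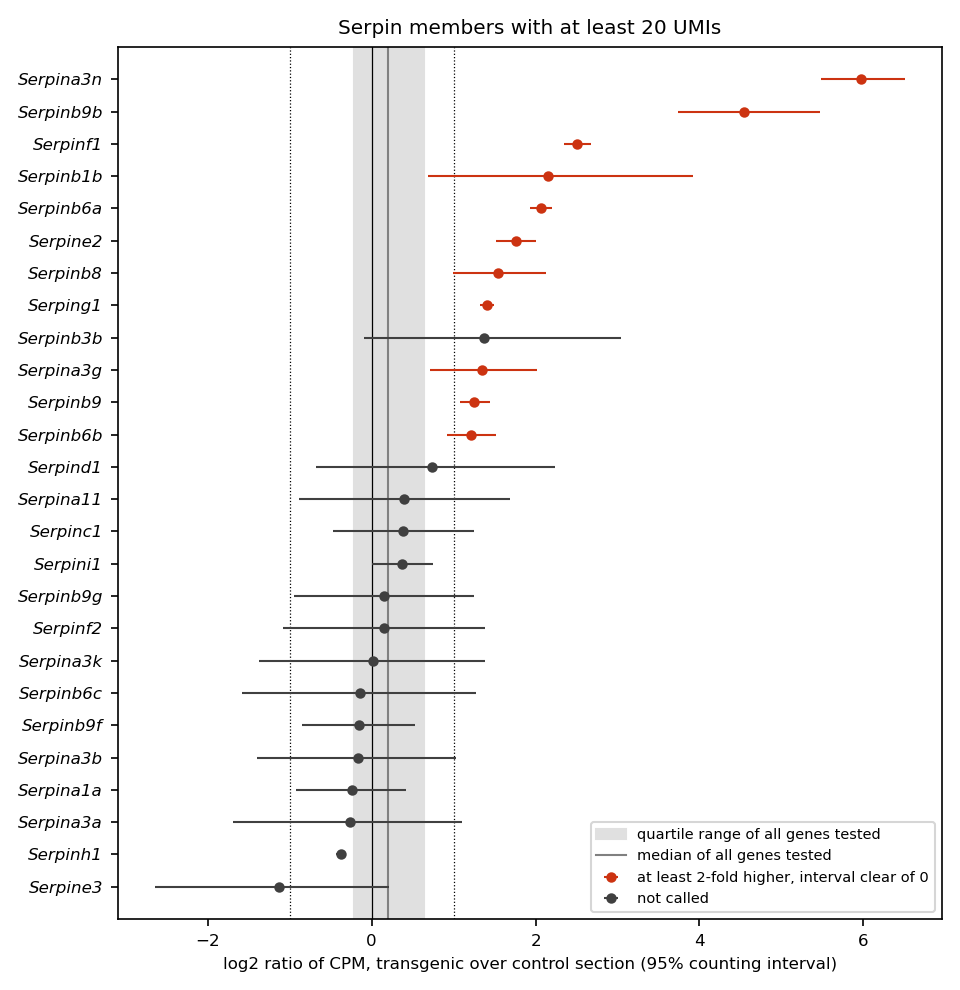
Log2 ratio of CPM, transgenic over control section, for 26 serpin members with at least 20 UMIs. Points are ratios, bars are 95% counting intervals, the grey band is the quartile range of all genes tested and dotted lines mark 2-fold. The 11 members in red lie above 2-fold, from 1.22 for Serpinb6b to 5.97 for Serpina3n, and Serpinh1 lies below 0 with a narrow interval.

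Serpina3n (ENSMUSG00000021091), a secreted inhibitor of leukocyte elastase and granzyme B in the mouse branch of human α1-antichymotrypsin, had the highest ratio of the family. It had 34 UMIs in the control section and 1917 UMIs in the transgenic section, which were 2.37 CPM (1.64 to 3.31) and 148 CPM (141 to 155). The log2 ratio was 5.97 (5.48 to 6.50), a 62.6-fold difference, and 8 of all 15236 genes tested had a higher ratio. In the spots with most cardiomyocyte UMIs, 50% of each section, the log2 ratio was 4.69, and with 1 CPM added to both sections it was 5.47.

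Of the other genes of its cluster on chromosome 12, Serpina3g alone was called, at a lower ratio. Its neighbours in the RefSeq gene order, Serpina3m and Serpina3k, had 9 and 4 UMIs and 11 and 10 UMIs in the control and transgenic section. Serpina3g, an interferon-inducible intracellular inhibitor of cathepsins, had 30 and 69 UMIs and a log2 ratio of 1.35 (0.71 to 2.02). Serpina3c had 8 and 5 UMIs. These genes are close relatives, the probe sequences are not given in the sources used here, and a UMI given to one of them could come from another.

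The start regions of 3 of these genes are shown because Serpina3n shared most of its window with Serpina3c and little with Serpina3g. Serpina3g was the other member of the cluster that was called, and Serpina3c had too few UMIs to be tested. They are RefSeq windows of 300 bases on GRCm38.p6, from 250 bases before to 50 bases after the gene start, written 5′ to 3′ on the strand of the gene. Serpina3n lies at chr12:104406458-104406757 on the plus strand, Serpina3c at chr12:104153823-104154122 on the minus strand and Serpina3g at chr12:104235897-104236196 on the plus strand. Capitals in Serpina3n and Serpina3c mark 8 runs of at least 9 bases that the pair shares in order, 225 of 300 bases. The last stretch of capitals in Serpina3n joins runs that other bases separate in Serpina3c. Capitals in Serpina3g mark the 3 such runs, 35 bases, that it shares with Serpina3n.
Serpina3n: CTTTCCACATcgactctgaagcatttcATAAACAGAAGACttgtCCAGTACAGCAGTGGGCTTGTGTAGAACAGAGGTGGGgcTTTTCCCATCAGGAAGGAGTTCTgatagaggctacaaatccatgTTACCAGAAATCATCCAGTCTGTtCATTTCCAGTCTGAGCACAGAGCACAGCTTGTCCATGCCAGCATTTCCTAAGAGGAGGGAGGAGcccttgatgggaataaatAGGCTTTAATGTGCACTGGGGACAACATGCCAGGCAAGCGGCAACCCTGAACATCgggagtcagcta
Serpina3c: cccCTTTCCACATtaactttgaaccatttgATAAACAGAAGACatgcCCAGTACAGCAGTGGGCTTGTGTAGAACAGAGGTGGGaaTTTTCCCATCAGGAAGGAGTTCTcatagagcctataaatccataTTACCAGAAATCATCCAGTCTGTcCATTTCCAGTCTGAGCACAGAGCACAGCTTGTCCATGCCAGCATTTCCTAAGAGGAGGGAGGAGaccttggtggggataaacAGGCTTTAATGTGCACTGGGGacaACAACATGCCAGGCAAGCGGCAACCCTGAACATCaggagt
Serpina3g: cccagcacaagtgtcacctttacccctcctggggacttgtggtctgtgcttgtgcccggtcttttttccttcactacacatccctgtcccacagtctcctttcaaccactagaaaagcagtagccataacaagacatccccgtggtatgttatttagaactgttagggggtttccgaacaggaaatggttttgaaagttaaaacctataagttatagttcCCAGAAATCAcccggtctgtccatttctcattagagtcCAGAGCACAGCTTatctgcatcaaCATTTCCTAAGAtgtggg

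Serpina3n and Serpina3c thus carried the same letters over most of this window. From control to transgenic section Serpina3n went from 34 to 1917 UMIs and Serpina3c from 8 to 5 UMIs. Serpina3c was under the UMI limit for members, and a part of the shared letters in these counts was not tested. The letters TTCNNNGAA, a STAT-type motif searched on both strands, occurred in Serpina3g as TTCCCAGAA from base -33. Serpina3n held TTACCAGAA from base -123, a difference of A3C counted from 1 at the 5′ end of these letters with the Serpina3n base first, and Serpina3c held the letters of Serpina3n from base -120. The motif occurred in 10 of 56 windows of serpin genes and in 8.3% of 32851 windows of all genes. These 56 windows belong to 48 of the member symbols, as some genes, such as Serpinb6a, have more than 1. Close relatives can share letters, so the serpin windows are not independent of each other. The AP-1 letters TGANTCA occurred in 11 serpin windows and 7.81% of all windows. The C/EBP-type letters TTGCNNAA occurred in 16 and 10.8%. The heat shock letters GAANNTTC occurred in 6 and 7.86%. The TATA box, as TATAAA, occurred in 17 and 13.6%, and the window of Serpina3n held none of the 5. Of the 12 members called higher, 10 had a window, and Serping1 was not among them. Of those 10, Serpinb6a was the other with the STAT-type letters, and Serpinb8 was the only member with the AP-1 letters.

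Of the other clade A genes, which are mostly plasma proteins made in the liver, few reached 20 UMIs. Clade A held 23 of the 56 symbols and 7 of the 27 tested members, of which Serpina3n and Serpina3g were called. The α1-antitrypsin gene Serpina1a had 46 and 35 UMIs, at a log2 ratio of -0.24 (-0.92 to 0.42). Serpina3a had 12 and 9 UMIs, Serpina3b had 15 and 12 UMIs, and Serpina11 had 11 and 13 UMIs. No UMI was counted for Serpina1d in either section, which by a limit of 3 counts allows up to 0.209 and 0.232 CPM. Of 4 hepatocyte markers tested, Ttr with 21 and 253 UMIs and Ahsg with 15 and 103 UMIs were called higher. Apoa2 with 53 and 66 UMIs and Fgb with 14 and 9 UMIs were not called. Alb had 4 and 11 UMIs and Fga 0 and 1 UMI, too few to be tested. Of the 29 members under 20 UMIs none passed 14 UMIs in either section.

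Inhibitors of fibrinolysis and coagulation were found in tissue and plasma forms. Serpine2 (ENSMUSG00000026249), protease nexin-1, a tissue form that inhibits thrombin and plasminogen activators, had 184 and 561 UMIs, 12.8 CPM (11.0 to 14.8) and 43.3 CPM (39.8 to 47.0), and a log2 ratio of 1.76 (1.52 to 2.01). Neuroserpin (Serpini1), an inhibitor of tissue plasminogen activator, had 115 and 134 UMIs, at 0.37 (0.00 to 0.74), and was not called. Of the circulating inhibitors none was called. Serpinc1, antithrombin, had 23 and 27 UMIs, Serpind1, heparin cofactor II, had 8 and 12 UMIs, and Serpinf2, α2-antiplasmin, had 13 and 13 UMIs. Serpine3, at 17 and 7 UMIs, had the lowest ratio among the 27 members, -1.13 (-2.64 to 0.21), with an interval that held 0.

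Of 19 fibrinolysis and coagulation genes tested beside them, 6 were called higher and 1 lower, with a median log2 ratio of 0.35. Of the plasminogen activators, which Serpine2 can inhibit, Plat had 153 and 317 UMIs and a log2 ratio of 1.20 (called higher), and Plau had 45 and 54 UMIs and a ratio of 0.41. The highest ratios were those of Thbs1, which encodes thrombospondin 1, at 3.05 and of Vwf, von Willebrand factor, at 2.48. The lowest were those of Vtn, vitronectin, an adhesive protein of plasma and matrix, at -1.51 and of plasminogen (Plg), with 14 and 6 UMIs, at -1.07. Lrp1, the receptor that clears serpin-protease complexes, had a log2 ratio of 2.22.

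Serping1 (ENSMUSG00000023224), the C1 inhibitor that blocks C1r and C1s of the classical complement pathway, was higher as well. It had 1450 and 3461 UMIs, 101 CPM (95.7 to 106) and 267 CPM (258 to 276), at a log2 ratio of 1.41 (1.32 to 1.49). Of 12 complement genes tested, 4 were called higher and 1 lower, with a median of 0.85. Its target C1ra had a log2 ratio of 0.79, below the 2-fold limit. C4b at 3.34 and Masp1 at 3.05 had the highest ratios, and the lowest were Cd59a, which protects cells from the membrane attack complex, at -1.37 and C2 at 0.47. Macrophage markers moved in the same direction, with 4 of 8 called higher and a summed level of 196 to 221 CPM over control quadrants and 378 to 464 CPM over transgenic quadrants, and their part in the complement values was not tested.

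The intracellular clade B gave 6 of the 12 members called higher. Clade B inhibitors stay in the cytoplasm and nucleus, where they guard cells against granule and lysosomal proteases. Serpinb9b (ENSMUSG00000021403), a paralogue of the granzyme B inhibitor Serpinb9, had 13 and 272 UMIs, 0.904 CPM (0.481 to 1.55) and 21.0 CPM (18.6 to 23.6), at a log2 ratio of 4.54 (3.74 to 5.47). Within its abundance range 22 of 6988 genes had a higher ratio. Its ratio was 3.94 in the spots richest in cardiomyocyte UMIs, 3.53 with 1 CPM added and 5.01 away from the tissue edge.

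Serpinb6a, an inhibitor of cathepsin G and other trypsin-like enzymes, had 536 and 2021 UMIs, 37.3 CPM (34.2 to 40.6) and 156 CPM (149 to 163), and a log2 ratio of 2.07 (1.93 to 2.21). Serpinb9 had 362 and 778 UMIs, at a log2 ratio of 1.25 (1.07 to 1.44). Serpinb6b, known to inhibit granzyme A, had 137 and 287 UMIs, at 1.22 (0.92 to 1.52). Serpinb8, an inhibitor of furin-like proteases, had 38 and 100 UMIs, at 1.55 (0.99 to 2.13). Serpinb1b, a paralogue of the neutrophil elastase inhibitor, had 5 and 20 UMIs, at 2.15 (0.69 to 3.92), the least certain of the called ratios. In the spots richest in cardiomyocyte UMIs, Serpinb8 at 0.99 and Serpinb1b at 1.77 were no longer called, and Serpinb1b was not called with 1 CPM added, at 0.92.

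Of the 6 clade B members called, 5 lay on chromosome 13, as did 8 of the 10 clade B members tested. In the RefSeq gene order of chromosome 13, Serpinb6b, Serpinb9, Serpinb9b and Serpinb1b stand next to each other, and all 4 were called. The next gene, Serpinb9c, had 3 UMIs in each section. Serpinb6a lies in the same cluster beside Serpinb6c, which had 11 and 9 UMIs, and outside it the neighbour Nqo2 had 747 and 610 UMIs at a ratio of -0.14. Serpinb9f and Serpinb9g, further paralogues, had 42 and 34 UMIs and 16 and 16 UMIs. Serpinb3b, outside this cluster, had 6 and 14 UMIs, at a log2 ratio of 1.37 (-0.10 to 3.04) that was not called. As in the Serpina3 cluster, a UMI given to one relative could come from another.

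The granule proteases that these inhibitors act on were scarce. Gzmb had 14 and 6 UMIs and a log2 ratio of -1.07, and Gzma had 89 and 29 UMIs and a ratio of -1.47, called lower. Ctsg, cathepsin G, had 17 and 7 UMIs at -1.13, and Elane, neutrophil elastase, had 10 and 8 UMIs. In a list of granule proteases that also held perforin (Prf1) and lysosomal cathepsins, 12 genes were tested. Of these, 4 were called higher and 1 lower, with a median of 0.15. The lysosomal cathepsins Ctsk at 1.85 and Ctss at 1.45 were among those called higher, and Ctsb at 0.54 was not called. The highest ratios were those of the lysosomal cathepsin Ctsl, with 4895 and 22655 UMIs at 2.36, and of the mast cell chymase Cma1, with 9 and 30 UMIs at 1.89. T and NK cell markers summed to 13.5 to 17.3 CPM over control quadrants and 4.79 to 13.1 CPM over transgenic quadrants, and 1 of the 5 tested was called, in the lower direction. Neutrophil markers summed to 10.3 to 16.5 and 14.3 to 19.3 CPM, and 1 of the 3 tested was called higher.

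Of the members that do not inhibit proteases, Serpinf1 was called higher and Serpinh1 was not called. Serpinf1 (ENSMUSG00000000753), pigment epithelium-derived factor, a secreted protein that restrains vessel growth, had 383 and 1967 UMIs, 26.6 CPM (24.0 to 29.4) and 152 CPM (145 to 159), at a log2 ratio of 2.51 (2.35 to 2.67). Its neighbour Serpinf2 had equal counts. Serpinh1 (ENSMUSG00000070436), the endoplasmic reticulum chaperone of procollagen, had 5652 and 3930 UMIs, 393 CPM (383 to 404) and 303 CPM (294 to 313). Its log2 ratio was -0.37 (-0.43 to -0.31), and 25.9% of the 2332 genes in its abundance range had a lower one.

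The collagen chains that Serpinh1 escorts had the opposite direction. Of 11 chains tested, 7 were called higher and none lower, with a median log2 ratio of 1.38, from 0.26 for Col6a3 and 0.81 for Col4a1 to 2.68 for Col1a1 and 3.09 for Col5a2. For every 100 UMIs of these chains there were 17.3 UMIs of Serpinh1 in the control section (16.4 to 18.2 over quadrants) and 3.97 in the transgenic section (3.27 to 5.03 over quadrants). The quadrants of the sections did not overlap in this ratio, which follows from its parts. The chains summed to 2148 to 2351 CPM over control quadrants and 5428 to 9713 CPM over transgenic quadrants. Serpinh1 had 374 to 411 CPM and 273 to 326 CPM in these quadrants.

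Among 28 genes of collagen folding and export, 9 were called higher and none lower, with a median of 0.68. The procollagen hydroxylase P3h2 at 3.19 and the matrix chaperone Sparc at 2.37 had the highest ratios. The lowest were those of P3h4 at -0.66 and of the general chaperone Hspa5 at -0.63.

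**Figure D2:**
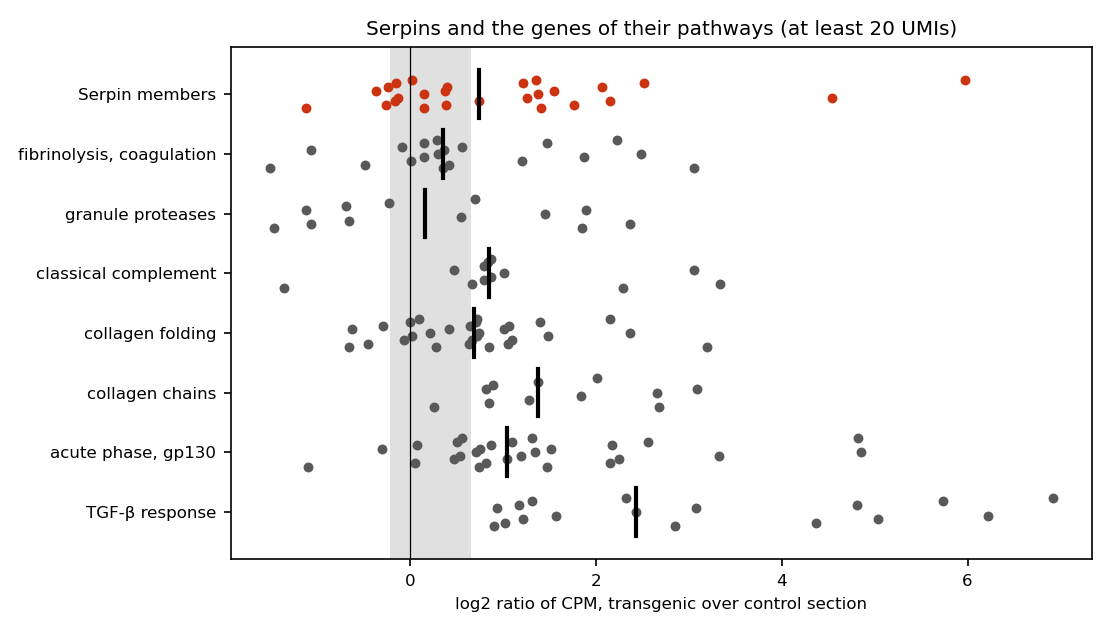
Log2 ratio of CPM, transgenic over control section, for 26 serpin members and for the genes of 7 related lists with at least 20 UMIs. Each point is a gene, the black bar is the median of the list (for serpins over all 27 members) and the grey band is the quartile range of all genes tested. The medians run from 0.15 for granule proteases to 2.43 for the TGF-β response. The granule protease list also holds lysosomal cathepsins and Prf1.

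A list of acute-phase and gp130 response genes, to which Serpina3n belongs by common usage, was looked at beside it. Of 27 genes tested, 13 were called higher and 1 lower, with a median of 1.04. Lcn2, with 27 and 703 UMIs at 4.85, and Timp1, with 27 and 686 UMIs at 4.82, had the highest ratios, and Tnf at -1.10 and Cebpb at -0.31 the lowest. The cytokine Il6 had 2 and 7 UMIs. Of 17 TGF-β response genes, 15 were called higher and none lower, with a median of 2.43, from 0.89 for Skil and 0.93 for Tgfbr2 to 6.22 for Cthrc1 and 6.92 for Ltbp2. Both lists were chosen with earlier results of these data known, and 13.1% of all genes tested were called higher.

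The sections also differed in the share of spots with a UMI of a member. A UMI of Serpina3n was found in 34 of 1256 control spots, 2.71% (1.88 to 3.76, Clopper-Pearson), and in 558 of 924 transgenic spots, 60.4% (57.2 to 63.6). For Serpinb9b these shares were 1.04% (0.55 to 1.76) and 20.8% (18.2 to 23.5). With every spot reduced at random to 8134 UMIs and 140 control and 78 transgenic spots below that dropped, the shares were 2.15% and 52.5% for Serpina3n and 0.90% and 13.2% for Serpinb9b. Serpinh1 was found in 96.8% and 93.3% of spots, near the ceiling in both sections.

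Within the sections the values were also compared over quadrants. Of the 27 members, 12 had higher CPM in every transgenic quadrant than in any control quadrant, as had 30.4% of all genes tested. They were the 12 members called. Those calls rest on the sums of the same quadrants, so the quadrants are no separate check of them. Serpinh1 was lower in every transgenic quadrant, at 273 to 326 CPM against 374 to 411 CPM, where 13.1% of all genes did so. Serpina3n had 2.34, 3.46, 1.67 and 1.94 CPM in the control quadrants and 122, 243, 50.3 and 183 CPM in the transgenic quadrants. The control quadrants were thus alike at the level of a few UMIs, and the transgenic quadrants spread over a wide range. Serpinb9b had 1.46, 0.532, 0.833 and 0.833 CPM in the control quadrants and 18.5, 40.8, 9.34 and 14.4 CPM in the transgenic quadrants. Its highest and lowest transgenic quadrants were those of Serpina3n. Serpine2 was more even, at 12.5 to 13.6 CPM in the control quadrants and 32.4 to 56.9 CPM in the transgenic quadrants.

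**Figure D3:**
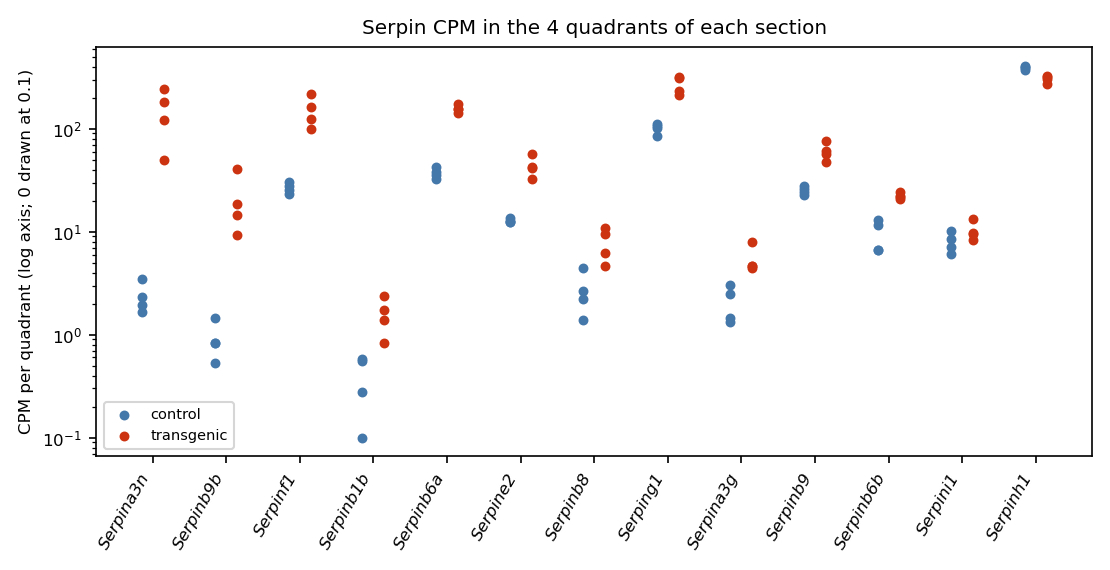
CPM of 13 serpin members in the 4 quadrants of the control (blue) and transgenic (red) section on a log axis, with 0 drawn at 0.1. All points of a member in red lie above its blue points for 11 members called higher, overlap for Serpini1 and lie below for Serpinh1.

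The authors deposited Moran's I for each gene, a score near 0 for a scattered gene and higher for a gene whose level is alike in neighbouring spots. In the transgenic section it was 0.52 for Serpina3n, 0.38 for Serpinf1, 0.38 for Serping1, 0.29 for Serpinb9b and 0.24 for Serpinh1. Serpinb6a and Serpine2 followed at 0.12 and 0.11. In the control section the members called higher lay between -0.02 and 0.06, and Serpinh1 lay at 0.02 with more UMIs than in the transgenic section. For Serpina3n and Serpinb9b the control counts were too few for a pattern to be detectable.

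**Figure D4:**
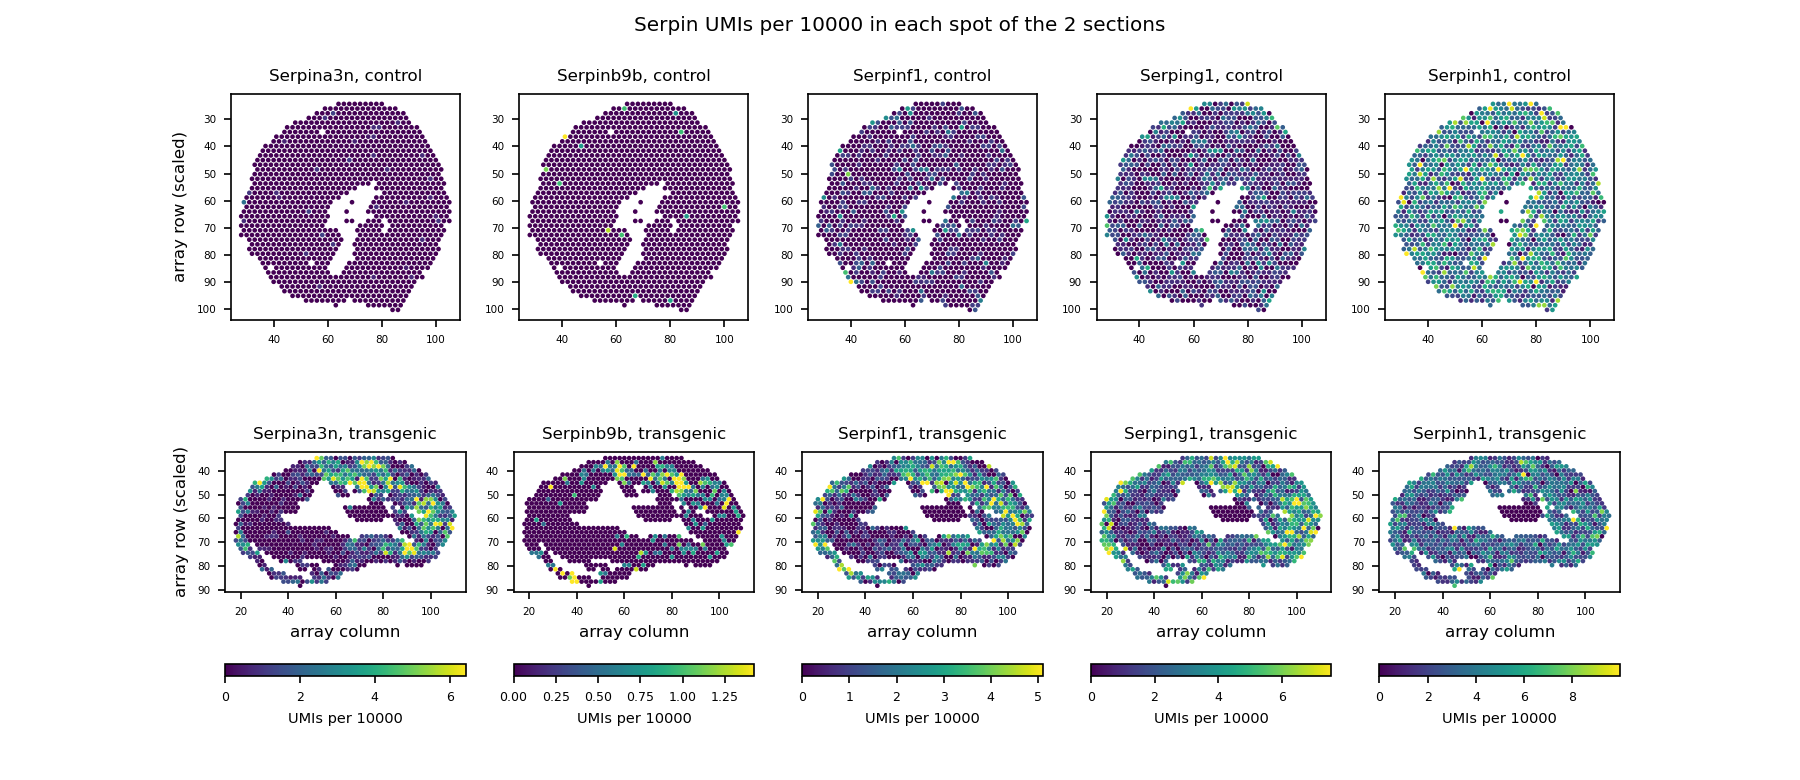
UMIs per 10000 in each spot with at least 1000 UMIs for 5 serpin members, with the control section above and the transgenic section below, on a shared colour scale per gene. Axes are positions on the spot array. In the transgenic section Serpina3n and Serpinf1 are brightest in the upper and right parts and low at the left and lower left, Serping1 is also bright at the left rim, and Serpinb9b lies in a few groups of spots; a block of spots in the open centre is dark for all 5.

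The patches of Serpina3n lay in tissue rich in collagen UMIs. Spots with at least 1000 UMIs were grouped within each section into tertiles by their share of UMIs of the 11 collagen chains. In the transgenic section Serpina3n had 29.9 CPM (24.7 to 35.9) in the low, 143 CPM (132 to 154) in the middle and 256 CPM (241 to 271) in the high tertile, an 8.56-fold range. Serpinb9b had 3.07, 17.2 and 40.5 CPM in the same groups. The span was 4.44-fold for Serpinf1, 2.74-fold for Serping1, 1.98-fold for Serpine2, 1.48-fold for Serpinb9 and 1.30-fold for Serpinb6a. In the control section these spans were 1.85-fold, 1.84-fold, 1.22-fold, 1.12-fold and 1.14-fold. From the low to the high tertile the collagen chains ran from 1546 to 3141 CPM in the control section. They ran from 3413 to 11683 CPM, a wider range, in the transgenic section. In the transgenic section Serpinb6b had 24.3, 21.3 and 21.1 CPM, with intervals that overlapped, and Serpini1 had 13.5, 8.14 and 9.79 CPM. In its low tertile the transgenic section had more Serpina3n than the control section, whose tertiles lay at 2.29, 2.60 and 2.19 CPM. The collagen chains summed to 3413 CPM in that low tertile and to 3141 CPM in the high control tertile. Tertiles of the 2 sections were thus not matched for collagen, and a comparison at equal collagen was not made. Spots rich in erythroid UMIs were kept in the tertiles, and their part in these spans was not tested.

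Serpinh1 followed the collagen share in the transgenic section, but from a lower base. It had 247 CPM (231 to 263), 297 CPM (282 to 314) and 359 CPM (341 to 377) from the low to the high tertile, and 384, 374 and 424 CPM in the control section. Its value in the high transgenic tertile was below that of the low control tertile (367 to 402), with intervals that overlapped. The collagen chains summed to 11683 CPM in the former and to 1546 CPM in the latter. Transgenic spots with at least 10% erythroid UMIs had 115 CPM of Serpinh1, and the other transgenic spots had 308 CPM. Erythroid-rich spots were kept in the tertiles, and their part in the climb of Serpinh1 was not tested.

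**Figure D5:**
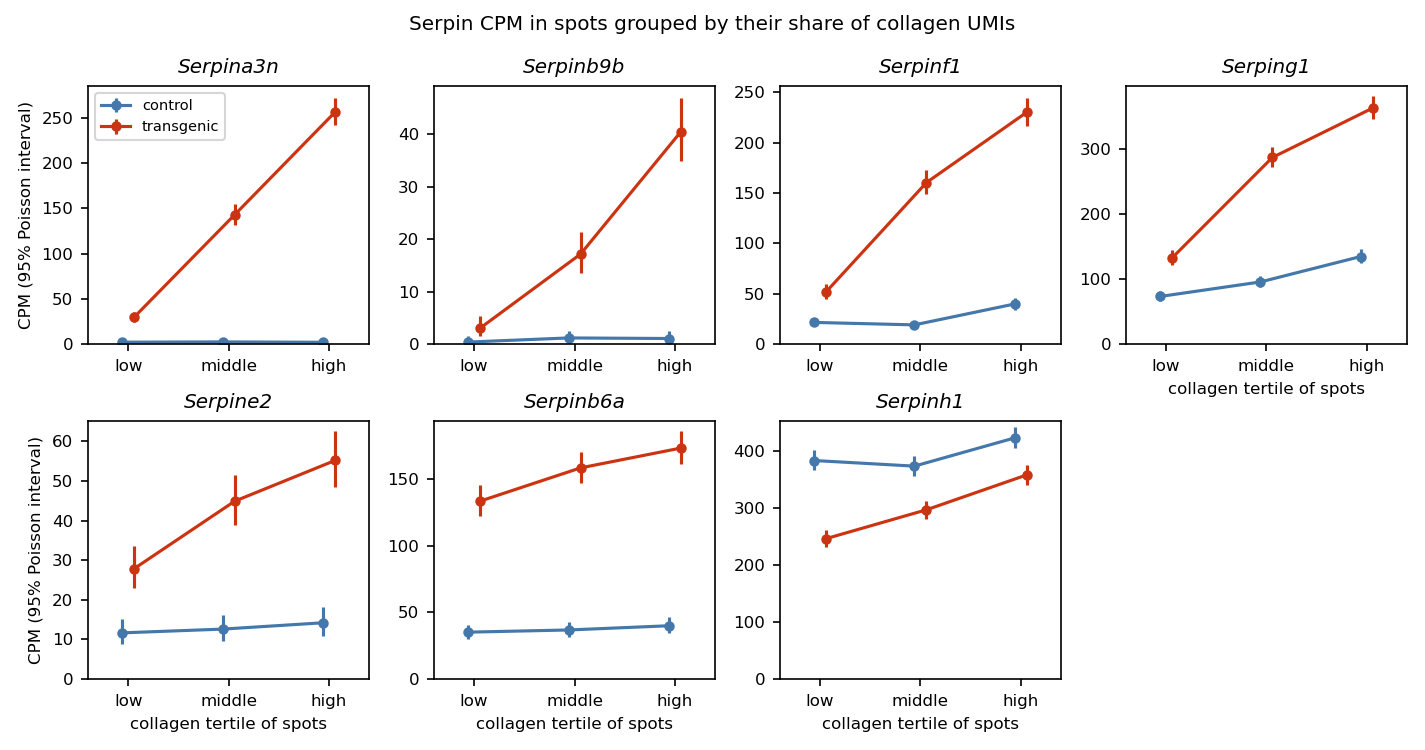
CPM of 7 serpin members in spots grouped into tertiles by their share of collagen UMIs, with 95% Poisson intervals. Serpina3n, Serpinb9b, Serpinf1 and Serping1 climb steeply with collagen in the transgenic section (red), and Serpine2 and Serpinb6a climb less. Serpinh1 climbs while staying below the control section (blue) at the same tertile. Serpinf1 and Serping1 are also highest in the high tertile of the control section. Tertiles were cut within each section, and each held a larger share of collagen UMIs in the transgenic section. Spots rich in erythroid UMIs were kept.

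Fibroblast markers were also higher in the transgenic section, where 5 of 8 were called. Their summed level ran from 1473 to 1762 CPM over control quadrants and from 3389 to 5640 CPM over transgenic quadrants, and it shares Col1a1 and Col1a2 with the collagen chains. Over 921 transgenic spots of 1 library the level of these markers had a Pearson r of 0.64 with Serping1, 0.55 with Serpinf1, 0.54 with Serpina3n and 0.27 with Serpinb6a. The cardiomyocyte markers had an r of 0.24 with Serpinb6a and -0.07 with Serpina3n. Erythroid markers had an r of -0.38 with Serpinh1, -0.30 with Serpinb6a, -0.33 with Serping1 and -0.22 with Serpina3n. For Serpinh1 the fibroblast and cardiomyocyte markers had an r of 0.49 and 0.36. For Serpina3n the other lists with an r above 0.3 were atrial (0.45), Schwann and nerve (0.32) and mural markers (0.31). Over 1249 control spots the fibroblast markers had an r of 0.30 with Serping1, 0.20 with Serpinf1, -0.02 with Serpina3n and 0.02 with Serpinb6a. The part of cell numbers in these values was not tested.

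Genes most like each member were sought among 2338 genes with at least 1000 transgenic UMIs, by Pearson r of the log UMIs per 10000 over the same 921 spots, which share a library and differ in depth. For Serpina3n they were Comp (0.67), Mgp (0.62), Igfbp7 (0.61), Prelp (0.58) and Clu (0.57), most of them genes of the extracellular matrix. Serpinf1 had Mgp (0.59), Igfbp7 (0.58), Comp (0.58), Col1a2 (0.56) and Bgn (0.56). Serping1 had Igfbp7 (0.63), Col1a2 (0.61), Mgp (0.60), Ccn5 (0.58) and Bgn (0.57). These values stayed between 0.50 and 0.67 in the 691 spots left without the 25% richest in erythroid UMIs.

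Serpinb6a had weaker likenesses that rested in part on the erythroid-rich spots. It had the small heat shock gene Hspb1 (0.35), Des (0.34), Gpx3 (0.34), Cd81 (0.33) and Hspb7 (0.33), and without those spots 0.09 to 0.20. Serpinh1, looked at after its values were seen, had no gene above 0.47, and its 5 highest values fell to between 0.09 and 0.23.

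Serpinb9b, also chosen after its values were seen, was most like Sprr1a (0.45), a stress-inducible gene of cardiomyocytes, and Postn (0.39). In the 192 spots with a Serpinb9b UMI, Sprr1a stood at 274 CPM (256 to 293), and in the 729 spots without one at 71.7 CPM (66.6 to 77.2). Serpina3n stood at 233 CPM and 121 CPM in these spots, and Serpinf1 at 213 CPM and 133 CPM. The spots with a UMI were somewhat deeper, at a median of 16050.5 against 14201 UMIs. Sprr1a was picked by its r with Serpinb9b over these same spots, so its difference between them is no separate check of that likeness.

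Correlations between members over spots were mostly low. Over the 91 pairs of the 14 members with at least 200 UMIs or a call, r ran from -0.04 to 0.55 in the transgenic section, with 14 pairs above 0.2, and from -0.07 to 0.11 in the control section, with none. In the former Serpina3n had an r of -0.04 with Serpinb6b and 0.01 with Serpina3g. The highest were Serpina3n with Serpinf1 (0.55), Serpina3n with Serping1 (0.46) and Serpinf1 with Serping1 (0.43). Several of these members had few UMIs in the control section.

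Serping1 had its highest level at the tissue edge in both sections. An edge spot was any spot that lacked a neighbouring tissue spot on the array, so rims of inner openings count as edge. In the transgenic section Serping1 stood at 304 CPM (286 to 322) in edge spots, 268 CPM in the next 2 rings and 209 CPM (192 to 228) deeper. The control values were 139, 108 and 85.5 CPM. Serpina3n stood at 130, 162 and 136 CPM in those transgenic zones, and Serpinb6a at 149.96, 154 and 171 CPM, so that neither was highest at the edge beyond counting error. Edge spots made up 18.3% of the control and 33.7% of the transgenic spots. Without them the log2 ratio of Serping1 was 1.42.

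At least 10% of the UMIs were erythroid in 8 control and 54 transgenic spots, and in the latter erythroid UMIs made up 54.2% of all, so CPM within such spots is not comparable with that of others. Without these spots, a choice made after seeing the data, 12 members were called, and the log2 ratio was 5.98 for Serpina3n and -0.35 for Serpinh1. With the most erythroid 25% of spots left out on each side, 12 were called again, with 5.94 and -0.36.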

How the data were processed

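The deposited values are raw UMI counts per gene and spot of Visium CytAssist libraries, which the authors made with Space Ranger 2.0.0 per the file headers, for spots over tissue; the submitters' processing notes name bcl2fastq and the builds GRCm39 and mm39, and the probe set is not given in the sources used here. Moran's I is a score the authors deposited per gene and section and was used as given. No test over spots was run, since spots of a section are not replicates.

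UMIs were summed per section (14376300 and 12953389) and compared as log2 ratios of CPM with exact conditional binomial intervals; levels have exact Poisson and shares of spots Clopper-Pearson intervals, all for counting error only. A count of 0 was set to 3 counts, and no ratio was given where both sections had 3 or fewer. A gene was called at 2-fold with a 95% interval clear of 0. Quadrants were cut at the centre of each section. Members named in full had at least 200 UMIs or a call; of each related list the 2 highest and 2 lowest ratios and the direct partners were named. 1 of the members counted is not reported singly here. Members and lists were chosen with earlier results of these data known. Alternatives used size factors of DESeq2 1.42.0 or TMM factors of edgeR 4.0.16, other totals, other spots, thinning, 1 CPM added and other UMI limits. Intervals were tested on simulated independent Poisson counts, the model they assume. This tested the calculation only, since the simulation held no spread between animals, sections or spots. Python 3.11.15, numpy 2.4.6, scipy 1.17.1, pandas 2.3.3 and R 4.3.3 were used.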

Additional observations from a re-analysis of the deposited data

How the results depend on the processing

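Of the 27 members, 12 were called higher in the main setting and 10 to 12 in the alternatives that kept these 27. The lowest number was that in the spots richest in cardiomyocyte UMIs, and 11 were called with 1 CPM added. With a limit of 1 UMI, 12 of 52 members were called, and with a limit of 200 UMIs, 9 of 11. The share of all genes called was not computed at these limits, which count UMIs of both sections. Serpina3n, Serpinb9b, Serpinb6b and Serpine2, with 34, 13, 137 and 184 control UMIs, passed 200 UMIs only with their transgenic UMIs. The values at the limit of 200 UMIs thus rest in part on that limit. None was called lower in any setting. The median log2 ratio of 0.74 was 0.58 with TMM factors, 0.33 with 1 CPM added and 0.99 away from the tissue edge. It was 0.26 for members with at least 1 UMI, leaving out those with 3 or fewer in both sections, and 1.76 for the 11 members with at least 200 UMIs. TMM factors lowered the log2 ratio of every gene by 0.16, DESeq2 size factors by 0.15 and totals without the 50 most abundant genes by 0.09, members alike. The members' median lay 0.53 above that of all genes, 0.17 with 1 CPM added and 0.78 away from the edge. Of 270 recomputed ratios of single members, 252 stayed inside the main interval, 18 moved outside it and none of the called ratios changed sign. Of 54 shares of spots, 34 moved outside their interval after thinning. No paired analysis was possible because each genotype has 1 section.

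Members under 200 UMIs have wide intervals, and the probe set that would tell near-identical relatives apart is not given in the sources used here. With 1 animal per genotype, genotype, animal, section level and blood content cannot be told apart.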
